A study of Caenorhabditis elegans with 14 samples.

Results

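Loss of daf-19 in adult Caenorhabditis elegans was examined on 6 of the 14 arrays of the series: 3 from adult daf-19 mutants and 3 from adult controls, chosen by their sample titles. The mutants carried mutations in daf-19 and daf-12, and the controls carried the daf-12 mutation alone, so every animal lacked a normal daf-12 gene, which encodes a nuclear hormone receptor. The titles call the animals young adults, whereas the growth protocol gives a harvest 50 hours past the L4 stage. RNA came from whole worms, the labels name no allele of either gene, and the replicates are labelled biological without a statement of how the cultures were kept apart. The other 8 arrays hold first-stage larvae (L1), 4 of each genotype, and served here to estimate the spread and to test whether an adult effect differed from that at L1. Of 22625 probe sets, 22548 were not array controls and were tested. They represented 17118 named genes with 1 probe set each.

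DAF-19 is the only RFX-type transcription factor of the nematode. One form of the protein binds X-box motifs in front of genes for sensory cilia, the microtubule-based endings through which some neurons sense chemicals, and worms without it build no cilia. Longer forms are present in neurons that bear no cilium, where they have been linked to synaptic protein levels in adults. The study asked which transcripts DAF-19 controls at different points of the life cycle.

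Signals are the deposited log2 values, on which a difference of 1 is a factor of 2. Fold changes are log2 differences, mutant minus control, with the standard error (SE) and adjusted p of limma over all probe sets, and a gene was called at an adjusted p under 0.05. Array medians were 5.92 to 5.96 in mutants and 5.91 to 6.02 in controls. The difference between the 3′ and 5′ probe sets of the Gapdh control, a measure of RNA integrity, ranged from -0.54 to -0.39 across mutant arrays and from -0.44 to -0.36 across control arrays. Control array 1 stood apart: it correlated with control arrays 2 and 3 at 0.993 and 0.990, against 0.997 between those 2, and with mutant array 1 at 0.9955. The mutant arrays correlated with each other at 0.996 to 0.997. Counts that rest on control array 1 are therefore also given without it.

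In adult daf-19 mutants 64 genes rose, 0.374% of those measured, and 121 fell, 0.707%. The 3 mutant arrays did not overlap the 3 control arrays in any of the 185. These genes were picked by the difference between the same arrays, so the lack of overlap adds no separate evidence. The same holds where single called genes are described below. The share of all genes without overlap was not counted. The falls were also the larger changes, with 51 genes that fell more than 2-fold and 19 that rose more than 2-fold. The median fold change was -0.86 over the genes that fell and 0.77 over those that rose, beside 0.03 over all genes. Without control array 1, 116 genes were called higher and 455 lower, and 177 of the 185 were among them. In a fit of the adult arrays alone 80 of the 185 were called, with the Gapdh difference as a covariate 54, and under all 16 alternatives in which a gene was tested 44. For 83 of the 121 genes that fell, control array 1 was the lowest of the controls, so its signals lay nearer to those of the mutants. Over all genes it was the lowest control in 32%.

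**Figure D1:**
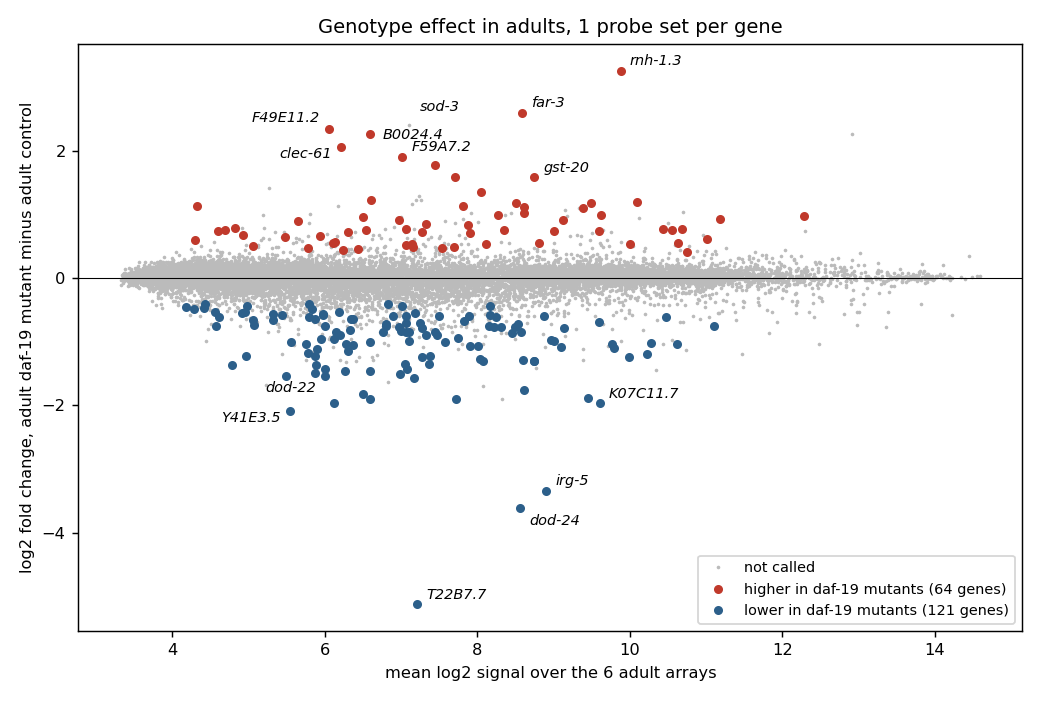
Each point is 1 of 17118 genes, with the mean log2 signal over the 6 adult arrays across and the log2 fold change, mutant minus control, upwards. Red points are the 64 genes called higher in daf-19 mutants and blue points the 121 called lower. T22B7.7, dod-24 and irg-5 lie far below the other genes, rnh-1.3 lies above them, and sod-3 lies high but in grey because it was not called.

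The transcript of daf-19 was still present in the mutants. Its dimmer probe set had signals of 6.68, 6.65 and 6.76 in mutants and 7.35, 7.24 and 7.42 in controls, a fall of 0.64 on the log2 scale (SE 0.12, adjusted p = 0.016). The brighter probe set had 7.83, 7.78 and 7.85 in mutants against 8.28, 8.35 and 8.52 in controls (-0.56, SE 0.15, adjusted p = 0.105, and 0.0348 in a fit of the adult arrays alone). On both probe sets every mutant array lay below every control array. The daf-12 signal, from a gene mutant in both groups, was 6.98, 7.13 and 7.19 in mutants and 6.90, 7.08 and 6.78 in controls, groups that overlapped (0.18, adjusted p = 0.938). Which parts of these transcripts the mutations remove is not stated, so these values are a limited check of the labels. Of the 40 measured genes closest to daf-19 on chromosome II, 20 on each side, 0 were called.

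The strongest change was in T22B7.7, a gene of the X chromosome. It read 4.76, 4.88 and 4.32 in mutants and 10.41, 9.78 and 9.14 in controls, a 34.9-fold lower signal (-5.12, SE 0.23, adjusted p = 1.23e-08). The mutant signals lay below the array median of about 5.9 while the control signals lay far above it. Fold changes at such low signals are approximate, since the treatment of array background is not given in the sources used here. In L1 larvae T22B7.7 differed by 0.27 (adjusted p = 0.774). K07C11.7 had 8.41, 8.87 and 8.59 in mutants against 10.05, 10.94 and 10.79 in controls (-1.97, SE 0.18, adjusted p = 4.81e-05), and its other probe set gave -2.18. Y51H7C.1 had 8.45, 8.68 and 8.41 in mutants and 10.89, 10.14 and 10.15 in controls (-1.88, SE 0.19, adjusted p = 0.000114). Mutant and control arrays were clearly separated in all 3 genes, and their calls held under every alternative in which they were tested.

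Several of the largest falls were in genes of induced immunity. Many of these encode secreted proteins with a CUB-like domain that intestinal cells make in response to bacteria, and some were first found as genes downstream of DAF-16, the FOXO factor of insulin signalling, hence the names dod-22 and dod-24. Of 48 measured genes on the list of induced immune and CUB-like genes, 7 fell and 1 rose, and the list's median was -0.11.

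The signal of irg-5, an infection response gene, was 7.24, 7.43 and 7.03 in mutants and 10.75, 10.68 and 10.29 in controls, 10.1-fold lower (-3.34, SE 0.15, adjusted p = 1.23e-08). The arrays within each genotype lay close together and some 3 log2 units apart between genotypes. For dod-24 the values were 7.48, 6.43 and 6.35 in mutants and 11.18, 10.35 and 9.59 in controls (-3.62, SE 0.43, adjusted p = 0.000547). For dod-22 they were 5.4, 5.32 and 4.99 in mutants and 6.95, 6.83 and 6.53 in controls (-1.53, SE 0.16, adjusted p = 0.000145). These 3 calls held under all alternatives in which the genes were tested, and in each gene control array 1 was the highest array, unlike its position in most genes that fell.

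The other members that fell were F55G11.2, C32H11.4, F55G11.8 and C17H12.8. F55G11.2 had 5.19, 5.22 and 5.04 in mutants and 7.15, 7.26 and 6.91 in controls (-1.96, SE 0.36, adjusted p = 0.0163). C32H11.4 had 7.05, 6.64 and 6.63 in mutants and 8.38, 9.09 and 8.57 in controls (-1.91, SE 0.38, adjusted p = 0.0242). F55G11.8 and C17H12.8 had fold changes of -1.43 (adjusted p = 0.0447) and -1.04 (adjusted p = 0.021). All 4 kept the gap between genotypes, but their calls were less firm. The F55G11.2 and C32H11.4 calls ended without any 1 of the arrays other than control array 1 (adjusted p up to 0.0925 and 0.159) and under a joint quantile normalization of all 14 arrays (0.113 and 0.0508). The F55G11.8 call ended without any 1 of mutant arrays 2 and 3 or control arrays 1, 2 and 3 (0.0636 to 0.203), and the C17H12.8 call without mutant array 2 or 3 or control array 2 (0.107 to 0.119). With the Gapdh covariate all 4 ended (0.0951 to 0.13), and C17H12.8 ended in the fit of the adult arrays alone (0.109).

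The immune falls were partly close neighbours. C32H11.4, dod-24, F55G11.8, dod-22 and F55G11.2, 5 of the 7, lie within a run of 14 measured genes on chromosome IV. The member that rose was abf-2, which encodes a defensin-like antibacterial factor, at 6.58, 6.12 and 6.10 in mutants and 5.79, 5.63 and 5.38 in controls (0.67, SE 0.13, adjusted p = 0.021). Its call ended in the fit of the adult arrays alone (0.158), with the Gapdh covariate (0.268), and without mutant array 1, control array 2 or control array 3 (0.0903 to 0.117). Outside the called genes, 3 other lists of defence and stress, namely lysozymes, the pals genes of the intracellular pathogen response, and cytosolic heat shock, held 0 called genes.

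**Figure D2:**
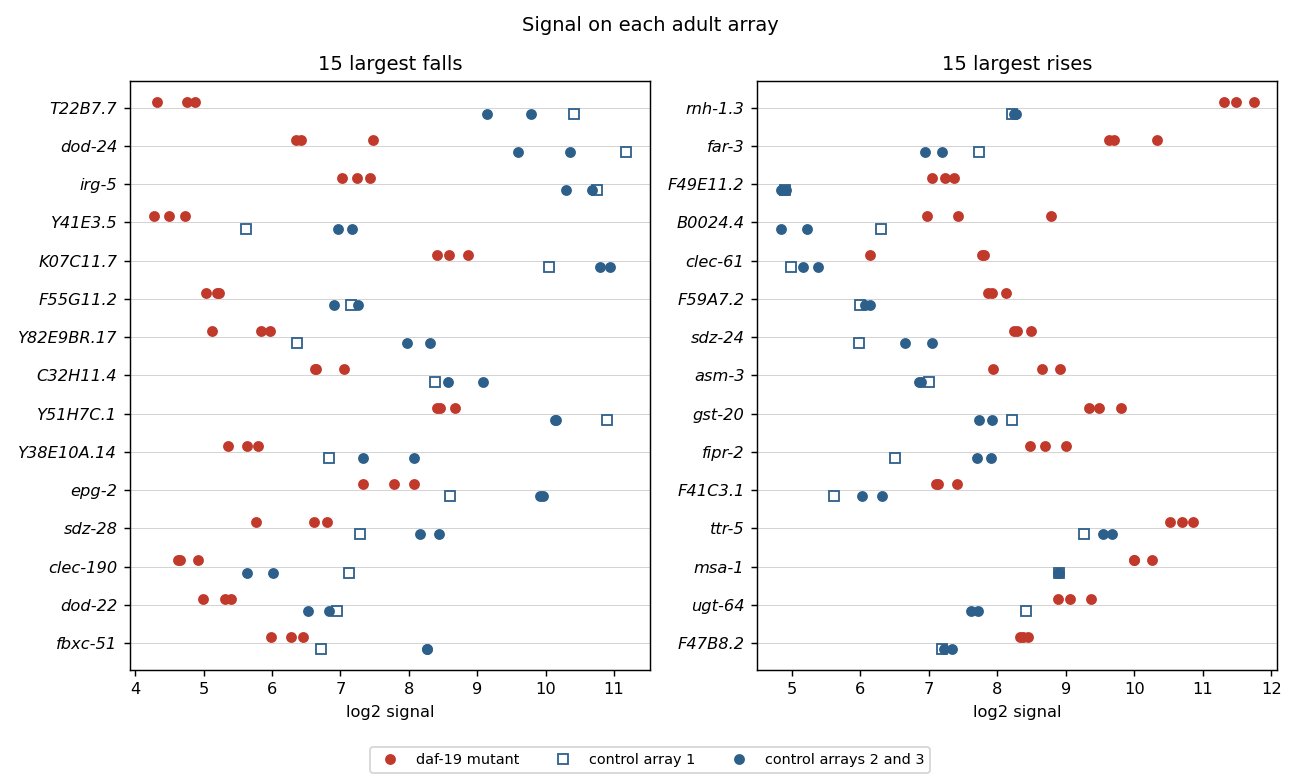
Log2 signal on each of the 6 adult arrays for the 15 genes with the largest falls (left) and the 15 with the largest rises (right), daf-19 mutants in red above the controls in blue, with control array 1 as an open square. No mutant array overlaps a control array in any of the 30 genes. Among the falls, control array 1 lies nearest to the mutants in epg-2, sdz-28, Y41E3.5, Y82E9BR.17, fbxc-51, K07C11.7 and C32H11.4, among others. It lies farthest from them in T22B7.7, dod-24, Y51H7C.1, irg-5 and dod-22, among others.

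A second body of falls was in genes that embryos express. Gravid adults carry embryos, so in these whole-worm samples fewer cells of a type and less RNA per cell cannot be told apart. Early zygotic genes are the first that the embryo itself transcribes, among them the very early transcripts (vet), the transcripts that depend on the maternal factor SKN-1 (sdz), and pes-10. Of 63 measured genes on that list, 9 fell and 1 rose, with a median of -0.12. With control array 1 left out, 18 fell and 1 rose.

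The clearest member was pes-10, with 5.0, 5.19 and 5.53 in mutants and 6.29, 6.31 and 6.24 in controls (-1.04, SE 0.12, adjusted p = 0.000555). sdz-30 had 4.20, 4.33 and 4.55 in mutants and 5.26, 5.84 and 5.67 in controls (-1.23, SE 0.13, adjusted p = 0.000186). Both calls held under every alternative in which they were tested. vet-6 had 6.27, 7.05 and 6.79 in mutants and 7.66, 8.16 and 8.32 in controls (-1.34, SE 0.18, adjusted p = 0.00136). sdz-25 had 3.78, 4.22 and 4.29 in mutants and 4.89, 5.81 and 5.70 in controls (-1.37, SE 0.19, adjusted p = 0.00197). The genotypes did not overlap in either gene, although the calls ended in the fit of the adult arrays alone (0.0538 for vet-6 and 0.0689 for sdz-25). The mutant signals of sdz-25 lay in the lower quartile of the array, where signals are close to the floor. The other members that fell were sdz-28 (-1.57, adjusted p = 0.0102), vet-1 (-1.23, 0.0123), vet-2 (-0.59, 0.0285), sdz-26 (-0.58, 0.0493) and sdz-14 (-0.58, 0.0499). Each of these 5 calls ended without control array 2 (0.0669 to 0.173) and without control array 3 (0.0612 to 0.254), and that of sdz-26 ended without control array 1 as well (0.0642). Those of vet-2, sdz-26 and sdz-14 further ended without mutant array 1 (0.172 to 0.242) and mutant array 3 (0.0724 to 0.217), and that of vet-2 without mutant array 2 (0.0741). All 5 ended with the Gapdh covariate (0.0876 to 0.414), and all but vet-2 in the fit of the adult arrays alone (0.115 to 0.179).

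One gene named for SKN-1 dependence went the other way. sdz-24 had 8.24, 8.29 and 8.49 in mutants and 5.98, 6.66 and 7.05 in controls (1.78, SE 0.24, adjusted p = 0.00144), a rise that held under all alternatives.

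Of the families with genes for parts of ubiquitin ligases, 4 had at least 3 members that fell. In an SCF ligase a Skp1-like protein, in the worm one of the skr products, joins a cullin to an F-box protein that picks the substrate, and BTB proteins serve as substrate adaptors of cullin-3 ligases. Of 19 measured skr genes 4 fell (median -0.23), of 95 fbxb genes 8 fell (median -0.21), of 44 fbxc genes 3 fell (median -0.02), and of 18 btb genes 3 fell (median 0.03). None of these 4 families had a member that rose, and the medians of the fbxc and btb families were near that of all genes. Without control array 1 the numbers that fell were 7 skr, 20 fbxb, 7 fbxc and 3 btb genes, and 1 skr gene rose.

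Among the skr genes, skr-7 had 8.42, 8.49 and 8.65 in mutants and 9.27, 9.61 and 9.63 in controls (-0.98, SE 0.11, adjusted p = 0.000217). skr-9 had 8.04, 8.82 and 8.84 in mutants and 9.41, 9.87 and 9.65 in controls (-1.08, SE 0.17, adjusted p = 0.00587), and skr-8 had 9.10, 9.37 and 9.3 in mutants and 9.86, 10.48 and 10.52 in controls (-1.03, SE 0.18, adjusted p = 0.0102). The fourth was skr-10 (-0.77, adjusted p = 0.00259). The skr-7 call held under every alternative. That of skr-9 ended in the fit of the adult arrays alone (0.112), that of skr-10 with the Gapdh difference as a covariate (0.056), and that of skr-8 in both of these (0.0565 and 0.102) and without mutant array 1 (0.0641), control array 2 (0.0736) or control array 3 (0.0623). A dimmer probe set of skr-8 gave -1.11 (adjusted p = 0.00144). The probe sets of skr-8 and skr-9 can match more than 1 transcript, so signal from close copies may be shared between them.

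Among called genes, the largest falls of the fbxb family were fbxb-54 (-0.75, adjusted p = 0.0232), fbxb-104 (-0.61, 0.0499) and fbxb-37 (-0.57, 0.0238). Those of the fbxc family were fbxc-51 (-1.51, 0.0295), fbxc-28 (-0.99, 0.0159) and fbxc-25 (-0.46, 0.0208), and those of the btb family btb-8 (-0.95, 0.017), btb-11 (-0.81, 0.0172) and btb-10 (-0.72, 0.0271). In all 9 the mutant arrays lay below the control arrays, by narrow margins in most. All 9 calls ended in the fit of the adult arrays alone (0.115 to 0.227), with the Gapdh covariate (0.106 to 0.318), and without mutant array 1 (0.0606 to 0.184), mutant array 3 (0.0672 to 0.155) or control array 2 (0.0803 to 0.303). Those of fbxb-104, fbxb-37, fbxc-25 and fbxc-51 ended without mutant array 2 (0.0717 to 0.154), and all but that of fbxb-54 without control array 3 (0.0623 to 0.254). A second probe set of fbxc-51 gave only -0.11.

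In the larger fbxa family of F-box genes, 1 of 171 measured genes fell and another 1 rose (2 each way without control array 1), at a median fold change of 0.03. The fall was in fbxa-72, chosen after its values were seen: 5.92, 5.54 and 6.13 in mutants against 7.09, 7.58 and 7.29 in controls (-1.46, SE 0.14, adjusted p = 0.000108), held under all alternatives. The rise was in fbxa-191 (0.46, adjusted p = 0.0493), a call that ended without any 1 of the arrays other than control array 1 (0.111 to 0.252). In the bath family of BTB-domain genes 2 of 38 rose and 0 fell (2 each way without control array 1), at a median of 0.06. The rises were in bath-12 (0.55, adjusted p = 0.0289) and bath-1 (0.47, 0.0433), and both calls ended without any 1 of the arrays other than control array 1 (0.0653 to 0.213).

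Another large fall was in epg-2. This gene, which encodes an adaptor that brings cargo to autophagosomes in embryos, had 7.33, 8.07 and 7.79 in mutants and 8.60, 9.91 and 9.96 in controls (-1.76, SE 0.29, adjusted p = 0.00653). sepa-1, whose product links P granule proteins to autophagy in embryonic somatic cells, also fell, with 6.4, 7.08 and 6.85 in mutants and 7.67, 8.07 and 8.26 in controls (-1.22, SE 0.18, adjusted p = 0.00259) and was chosen after its values were seen. Of the 12 measured atg genes, the core autophagy family, 0 were called, with a median of -0.02. The genotypes were separated in both, with control array 1 closest to the mutants. The epg-2 call ended in the fit of the adult arrays alone (0.11) and with the Gapdh covariate (0.103), and that of sepa-1 with the Gapdh covariate (0.0501).

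**Figure D3:**
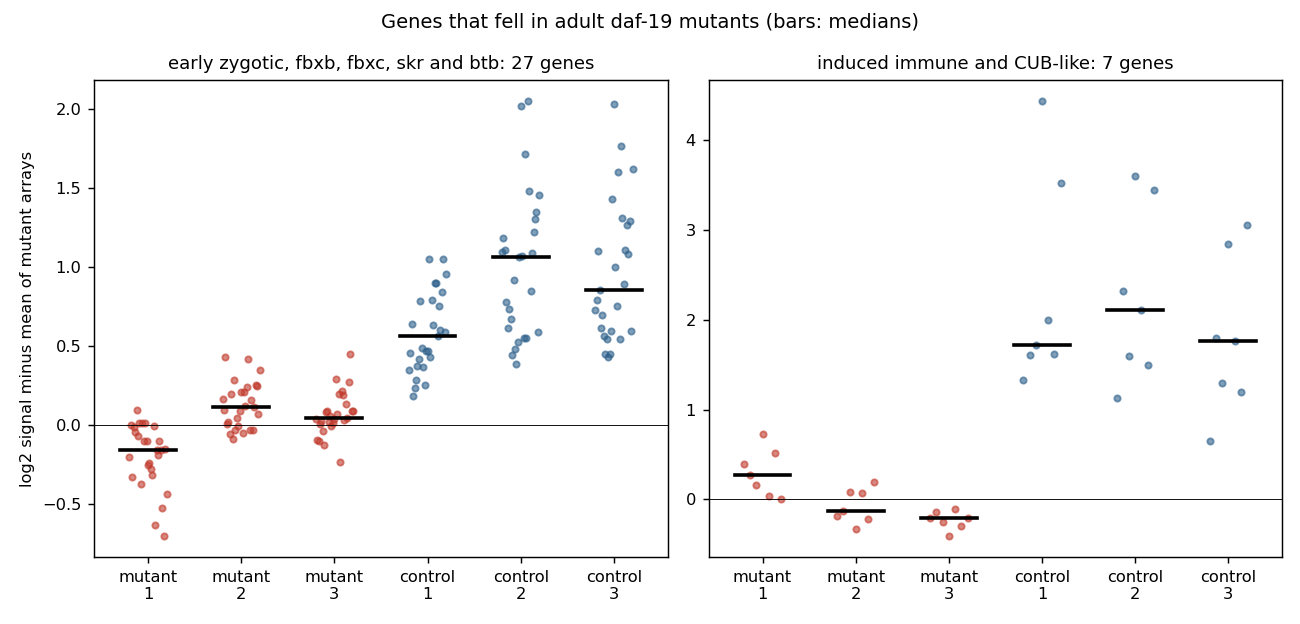
Log2 signal minus the gene's mean over the mutant arrays, by array, for the 27 genes of the early zygotic list and the fbxb, fbxc, skr and btb families that fell (left) and the 7 of the immune list that fell (right), with mutant arrays in red, control arrays in blue and black bars at the medians. In the left group the medians of control arrays 1, 2 and 3 were 0.56, 1.06 and 0.86 above the mutant mean. In the right group they were 1.71, 2.11 and 1.76.

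Pooled after their values were seen, the early zygotic list and the fbxb, fbxc, skr and btb families held 239 genes, of which 27 fell and 1 rose. Control array 1 was the lowest control for 22 of the 27. For the 7 immune genes that fell it was the highest control for 5. Mutant array 1 moved the same way: its median from the mutant mean was -0.16 in the 27 genes and 0.28 in the 7 immune genes. With control array 1 left out, 55 of the 239 fell. Tissue lists that adult gonads and eggs dominate gave no calls beside these falls: germline and oocyte genes had a median of 0.09 with 33 of 37 above 0, meiotic genes 0.08 with 20 of 25 above 0, and eggshell genes 0.12 with 13 of 15 above 0. Without control array 1 these medians were 0.17, 0.15 and 0.22. Over all 17118 genes 10146 lay above 0, with a median of 0.03. The part that the number or age of embryos in the worms had in the falls was not tested.

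The rest of the 15 largest falls were in genes with little known function. Y82E9BR.17 had 5.12, 5.97 and 5.84 in mutants and 6.36, 8.31 and 7.98 in controls (-1.91, SE 0.37, adjusted p = 0.0216), with control array 1 far below the other controls. Y38E10A.14 fell by 1.82 on the log2 scale (SE 0.30, adjusted p = 0.00817). clec-190, one of the C-type lectin domain genes, fell by 1.53 (SE 0.26, adjusted p = 0.00911). With the Gapdh covariate the calls of Y82E9BR.17 (0.254), Y38E10A.14 (0.126) and clec-190 (0.13) ended, as did those of Y82E9BR.17 (0.19) and clec-190 (0.125) in the fit of the adult arrays alone. The call of Y82E9BR.17 also ended without mutant array 1 or 3 or control array 2 or 3 (0.0679 to 0.132), that of Y38E10A.14 without mutant array 1 (0.0511), and that of clec-190 without mutant array 1 (0.0508) or mutant array 3 (0.0517).

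The genes epi-1, dsl-1, dsl-2 and cpg-9 were chosen after their values were seen, and their falls held under every alternative in which they were tested. epi-1, the laminin alpha chain of basement membranes, had 7.45, 7.54 and 7.43 in mutants and 8.30, 8.64 and 8.70 in controls (-1.07, SE 0.11, adjusted p = 0.000186). The Notch ligand family genes dsl-1 and dsl-2 fell by 1.17 (SE 0.16, adjusted p = 0.00197) and 0.79 (SE 0.11, adjusted p = 0.00163). In each of the 3 genes the mutant arrays formed a tight group below the controls. cpg-9, named for a chondroitin proteoglycan product, had 7.03, 7.52 and 7.67 in mutants and 8.60, 8.83 and 8.60 in controls (-1.27, SE 0.14, adjusted p = 0.000251). In the same family of 12 measured genes cpg-18 rose, with 4.88, 4.87 and 5.18 in mutants and 4.16, 4.32 and 4.22 in controls (0.74, SE 0.10, adjusted p = 0.00116).

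The largest rise was in rnh-1.3, a ribonuclease H family gene. It had 11.74, 11.31 and 11.48 in mutants and 8.22, 8.25 and 8.28 in controls, 9.58-fold higher (3.26, SE 0.14, adjusted p = 1.23e-08). The control arrays were within 0.1 of each other and more than 3 log2 units below the mutants. F49E11.2 had 7.05, 7.24 and 7.37 in mutants and 4.90, 4.84 and 4.91 in controls (2.34, SE 0.11, adjusted p = 1.43e-08). F59A7.2 had 8.13, 7.87 and 7.92 in mutants and 5.99, 6.14 and 6.07 in controls (1.91, SE 0.14, adjusted p = 7.33e-06). All 3 rises held under every alternative, and none of the 3 genes was called at L1.

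Single genes with roles in lipid handling or detoxification were among the other large rises. far-3, a fatty acid and retinol binding protein gene, had 9.63, 9.70 and 10.33 in mutants and 7.73, 7.19 and 6.95 in controls (2.60, SE 0.26, adjusted p = 0.000108). asm-3, an acid sphingomyelinase gene, had 7.94, 8.92 and 8.65 in mutants and 7.0, 6.86 and 6.88 in controls (1.59, SE 0.25, adjusted p = 0.00503). gst-20, a glutathione S-transferase gene, had 9.34, 9.49 and 9.80 in mutants and 8.21, 7.92 and 7.73 in controls (1.59, SE 0.17, adjusted p = 0.000217). The genotypes did not overlap and these 3 rises held under all alternatives in which they were tested. ugt-64, a UDP-glucuronosyltransferase gene, had 9.37, 8.89 and 9.06 in mutants and 8.42, 7.72 and 7.62 in controls (1.19, SE 0.18, adjusted p = 0.00382, but 0.0729 in the fit of the adult arrays alone and 0.071 with the Gapdh covariate). In the ugt family of 64 measured genes ugt-64 was the 1 that rose and 2 fell: ugt-4 (-0.84, adjusted p = 0.0002), held under all alternatives, and ugt-53 (-0.65, 0.0499), whose call ended without any 1 of the arrays other than control array 1 (0.0929 to 0.275). On the list of 73 lipid genes far-3 was the 1 member that rose and 0 fell, with a median of 0.04. Without control array 1, 3 of the 73 rose and 2 fell, with a median of 0.005, and the fit of the adult arrays alone called 1 higher and 1 lower.

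Among the remaining large rises, B0024.4 varied most. Its signals were 8.78, 6.98 and 7.42 in mutants and 6.30, 5.23 and 4.85 in controls (2.27, SE 0.39, adjusted p = 0.0104), with the first array of each genotype the highest. clec-61, a C-type lectin domain gene, had 6.14, 7.80 and 7.78 in mutants and 4.99, 5.16 and 5.39 in controls (2.06, SE 0.33, adjusted p = 0.00587). The B0024.4 call ended without control array 2 (0.0687) or 3 (0.0623), and both calls ended in the fit of the adult arrays alone (0.132 for B0024.4 and 0.0985 for clec-61), and that of B0024.4 with the Gapdh covariate (0.141). F41C3.1 (1.23, adjusted p = 0.00259) and msa-1 (1.19, 0.00476) held under all alternatives. ttr-5, a transthyretin-related gene (1.2, 0.00367), and F47B8.2 (1.13, 0.00318) lost their calls with the Gapdh covariate (0.063 and 0.056).

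Epidermal antimicrobial peptide genes, the nlp, cnc and fipr genes that skin cells switch on after fungal infection or wounding, leaned upwards. Of 28 measured genes 3 rose, 0 fell and 25 lay above 0, with a median of 0.17. Over all 17118 genes 10146 lay above 0. fipr-2 had 8.69, 8.48 and 9.0 in mutants and 6.51, 7.7 and 7.91 in controls (1.35, SE 0.27, adjusted p = 0.0258). cnc-4, a caenacin gene, had 9.40, 9.02 and 9.11 in mutants and 8.16, 7.99 and 8.03 in controls (1.12, SE 0.24, adjusted p = 0.0429). fipr-16 had 5.47, 4.27 and 4.95 in mutants and 3.71, 3.85 and 3.73 in controls (1.13, SE 0.20, adjusted p = 0.0119), with control signals in the lower quartile of the array. All 3 separated the genotypes, but each call ended without mutant array 3 (0.0623 to 0.144). Those of fipr-2 and cnc-4 also ended without mutant array 1 (0.0988 and 0.212) or mutant array 2 (0.0543 and 0.0915), that of cnc-4 without control array 2 (0.197), and those of cnc-4 and fipr-16 without control array 3 (0.149 and 0.0596). All 3 ended with the Gapdh covariate (0.144 to 0.318), and those of fipr-2 (0.19) and fipr-16 (0.147) in the fit of the adult arrays alone.

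The superoxide dismutase gene sod-3, a classic target of DAF-16, was not called although its adult signals differed widely. It had 8.15, 8.25 and 8.53 in mutants and 6.11, 5.82 and 5.78 in controls (2.41, SE 0.69, adjusted p = 0.163). The 6 adult arrays formed 2 tight groups. The spread that entered the test came from L1, where the SD was 1.63 in mutants and 0.79 in controls, and in the fit of the adult arrays alone the adjusted p was 0.000269.

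**Figure D4:**
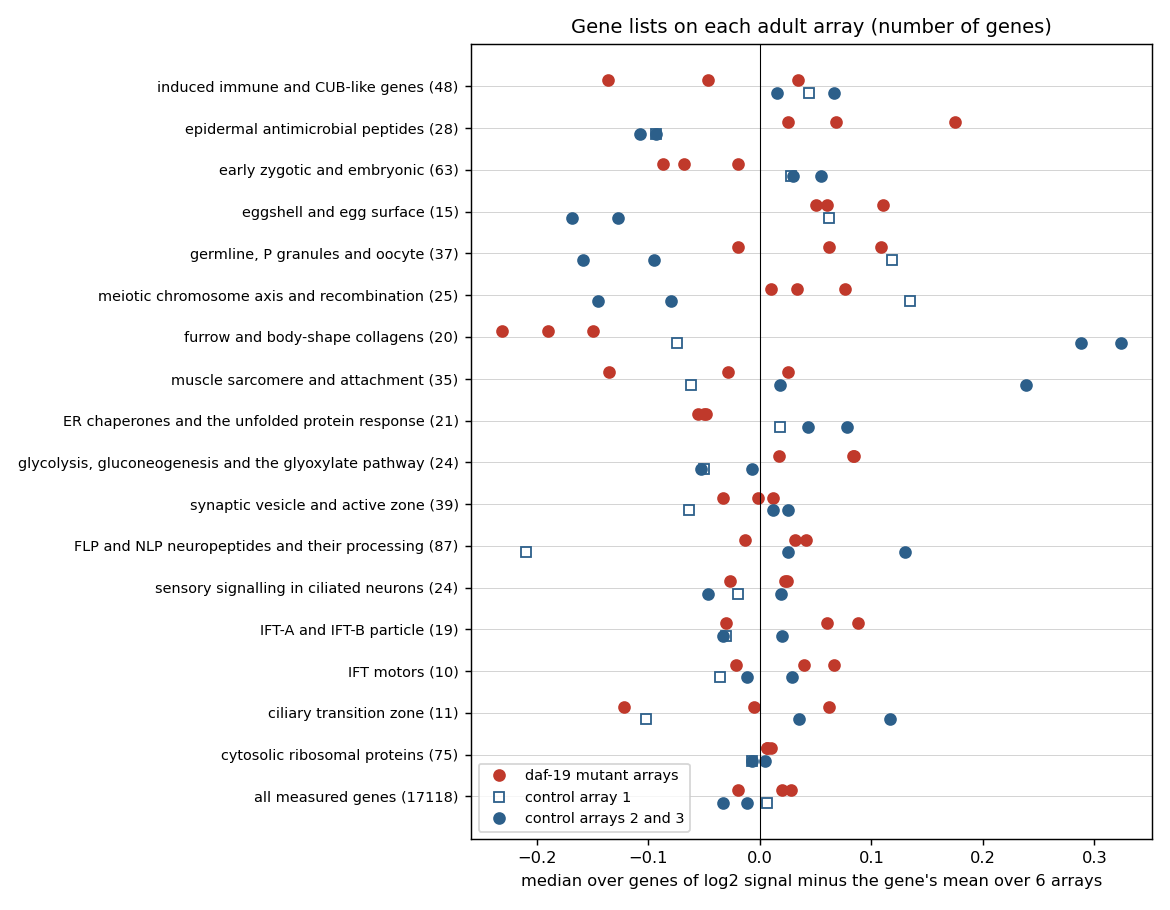
For 17 gene lists and all genes, the median over genes of the log2 signal minus the gene's mean over the 6 adult arrays, by array, with daf-19 mutants in red above the controls in blue and control array 1 as an open square. The furrow and body-shape collagens spread most between arrays, and control array 1 lies away from control arrays 2 and 3. The ribosomal list stays within 0.01 of 0 on every array, and the synaptic and intraflagellar transport lists within 0.09.

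Cuticle genes depended on which controls were used. Collagens of the furrows and body shape had 0 calls in 20 measured genes. Of their fold changes 19 of 20 were below 0, with a median of -0.36, beside 6866 of all 17118 genes below 0. At an unadjusted p under 0.05, 9 of the 20 were lower and 0 higher, beside 834 lower and 547 higher of all genes. Without control array 1, 6 of the 20 fell. dpy-2, a furrow collagen gene, had 6.06, 6.4 and 6.46 in mutants and 6.33, 7.88 and 7.87 in controls, so that control array 1 lay among the mutants (-1.05, SE 0.30, adjusted p = 0.166). With that array left out its fold change was -1.57 (adjusted p = 2.96e-05). Its dimmer probe set gave -0.54 with every array in the fit (adjusted p = 0.509). Over the whole col family of 128 genes 0 were called and 98 lay below 0, with a median of -0.14, and 19 fell without control array 1.

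Muscle sarcomere and attachment genes had a median of -0.09, and 1 of 35 fell. This was tni-3, a troponin I gene, with 7.99, 8.72 and 8.73 in mutants and 9.28, 9.52 and 9.57 in controls (-0.98, SE 0.18, adjusted p = 0.0156). Its dimmer probe set gave -0.64 (adjusted p = 0.0354). Of 21 genes for chaperones and sensors of the endoplasmic reticulum 1 fell, dnj-7, a J-domain cochaperone gene, with 7.22, 7.2 and 7.19 in mutants and 7.61, 7.75 and 8.02 in controls (-0.59, SE 0.12, adjusted p = 0.0254). Both genes separated the genotypes. Both calls ended in the fit of the adult arrays alone (0.107 for tni-3 and 0.0748 for dnj-7) and with the Gapdh covariate (0.148 and 0.103). The tni-3 call ended without control array 2 (0.0886) or 3 (0.0795), and that of dnj-7 without any 1 of the arrays other than control array 1 (0.0939 to 0.136). With control array 1 left out, 3 of the 35 muscle genes fell.

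In 6 reproductive lists of 188 distinct genes (yolk, eggshell, germline, meiosis, sperm and cell cycle) 0 were called, and list medians ran from 0.00 to 0.12. At an unadjusted p under 0.05, 5 of the 188 were higher and 1 lower, beside 547 and 834 of all 17118 genes. The fit of the adult arrays alone called 0 of the 188. The genes with the smallest p of these lists were vit-1 (-0.22, adjusted p = 0.309), cpg-3 (0.39, 0.401), mex-3 (0.23, 0.509), zim-1 (0.22, 0.804), spe-21 (0.21, 0.606) and cdk-2 (0.23, 0.599). In 7 lists of stress, metabolism and gut with 204 distinct genes (lysozymes, pals genes, redox enzymes, heat shock, sugar metabolism, ribosomal proteins and intestine) 0 were called. List medians ran from -0.09 to 0.10, and 9 genes were higher and 5 lower at an unadjusted p under 0.05. The fit of the adult arrays alone called 2 of the 204 higher, and the fit without control array 1 called 1 higher and 3 lower. Here the smallest p belonged to lys-7 (0.74, adjusted p = 0.42), pals-1 (-0.20, 0.619), sod-3, sip-1 (0.34, 0.253), pck-1 (0.40, 0.0856), rpl-11.2 (-0.25, 0.929) and asp-5 (-0.41, 0.0676). A dimmer probe set of asp-5, an aspartyl protease gene, did pass (-0.37, adjusted p = 0.02). Without control array 1, lys-7 was higher by 1.14 (adjusted p = 0.00771) and rpl-11.2 had a fold change of -0.50 (adjusted p = 0.0327).

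Whole-worm signals gave few calls in the neuronal lists, but calls were few over all genes too (0.374% higher and 0.707% lower). Of 87 neuropeptide genes 1 rose and 0 fell, with a median of 0.04, against 0 and 3 with a median of -0.05 when control array 1 was left out. The gene that rose was nlp-80, at 7.67, 7.63 and 7.98 in mutants and 6.61, 6.94 and 7.16 in controls (0.86, SE 0.18, adjusted p = 0.0285). The nlp-80 call ended in the fit of the adult arrays alone (0.0689), with the Gapdh covariate (0.176), without any 1 of mutant arrays 1, 2 and 3 (0.0653 to 0.155) and without control array 1 (0.0505) or control array 2 (0.117). In 7 other neuronal and glial lists of 166 distinct genes (sensory signalling, synapses, transmitters, neuron identity, insulin-like and dauer signalling, polycystins and glia) 0 were called, with list medians of -0.01 to 0.07, and 4 genes were higher and 8 lower at an unadjusted p under 0.05. Of all 17118 genes 547 were higher and 834 lower at that unadjusted p. In the 7 lists the fit of the adult arrays alone called 0, and that without control array 1 called 5 lower. Without control array 1, 455 of all 17118 genes were called lower and 116 higher. In these lists the smallest p belonged to odr-1 (0.29, adjusted p = 0.474), syd-1 (-0.24, 0.588), mod-5 (0.16, 0.661), ceh-36 (-0.66, 0.229), ins-23 (0.51, 0.142), pkd-2 (0.12, 0.999) and ztf-16 (-0.30, 0.308). Of these, ceh-36 (-0.91, adjusted p = 0.0109) and ztf-16 (-0.40, 0.0378) were called without control array 1. RNA of a few neurons is a small share of whole-worm RNA, so a change in a single neuron type may be too small for these signals.

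The genes hen-1 and glb-1, outside the lists, rose and were chosen after their values were seen. hen-1 encodes a secreted protein required for sensory integration and learning and had 6.90, 6.90 and 7.12 in mutants and 6.27, 6.02 and 5.77 in controls (0.95, SE 0.13, adjusted p = 0.0013). glb-1, a globin gene, had 11.49, 11.62 and 11.85 in mutants and 10.73, 10.77 and 10.67 in controls (0.93, SE 0.11, adjusted p = 0.00031). In both the lowest mutant array was above the highest control array, and both rises held under all alternatives in which they were tested.

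Genes for building cilia, the best known targets of DAF-19, did not pass the test in adults. The 5 ciliary lists held 72 measured genes for the particles and motors of intraflagellar transport, the BBSome, the transition zone and other X-box genes. In adults 0 of the 72 were called (2 higher and 4 lower at an unadjusted p under 0.05), with fold changes between -0.43 and 0.65 and a median of 0.04. Of all 17118 genes 547 were higher and 834 lower at that unadjusted p. Among the 72 the fit of the adult arrays alone also called 0, and that without control array 1 called 1 lower. At L1, where 1.17% of all genes were called, 21 of the 72 fell and 2 rose. Of the 72, 49 lay below the array median and 21 below the lower quartile on all 6 adult arrays. On any 1 array 25% of all probe sets lie below the lower quartile by definition. Whether low signals hid a fall in these genes was not tested.

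The heavy chain of the retrograde ciliary motor dynein, che-3, had 6.47, 6.27 and 6.49 in mutants and 6.44, 6.49 and 6.55 in controls (-0.08, SE 0.10, 95% interval -0.30 to 0.13). These overlapping signals lay above the array median, but whether they stood above background was not tested. The effect on che-3 in adults was 1.67 above that at L1 (SE 0.13, adjusted p = 1.26e-05). osm-5, an IFT particle gene, had 6.37, 6.34 and 6.31 in mutants and 6.11, 6.13 and 6.27 in controls (0.17, interval -0.06 to 0.40), and its effect in adults was 0.72 above that at L1 (adjusted p = 0.0232). ifta-1 had 6.65, 6.60 and 6.34 in mutants and 6.55, 6.47 and 6.55 in controls (0.01, interval -0.28 to 0.29), with an effect 1.31 above that at L1 (adjusted p = 0.00165). For these 3 genes the adult intervals left out a fall of the size measured at L1. So did those of the other ciliary genes that fell at L1, narrowly in che-11 (interval from -0.66, against -0.74 at L1). Most of these others read below the array median, and the intervals do not take in the error of the L1 values. The 21 ciliary genes that fell at L1 were picked by those same L1 values. The test of the stage difference called 9 of the 21 and not the rest, such as che-11 (adjusted p = 0.618).

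The test of the stage difference called 161 genes, 0.941% of those measured, and 9 of the 72 ciliary genes: che-2, osm-5, ift-139, ifta-1, che-3, bbs-1, xbx-3, xbx-9 and ttll-11. In all 9 the adult effect was above that at L1. The lowest adult fold change of the 72 belonged to xbx-9, with 5.95, 6.04 and 5.82 in mutants and 6.10, 6.44 and 6.55 in controls (-0.43, SE 0.14, adjusted p = 0.265, and 0.0444 without control array 1). The highest belonged to dyf-11, an IFT particle gene, with 5.67, 5.74 and 5.87 in mutants and 4.88, 5.27 and 5.18 in controls (0.65, SE 0.16, adjusted p = 0.0784, and 0.00326 with array weights), and it was called higher at L1 (1.2, adjusted p = 0.000244). Neither gene's groups overlapped, though both were picked as the extremes of the 72. The smallest p of the 3 other ciliary lists belonged to xbx-1 (0.17, adjusted p = 0.901), arl-3 (0.33, 0.862) and tmem-231 (-0.30, 0.613).

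**Figure D5:**
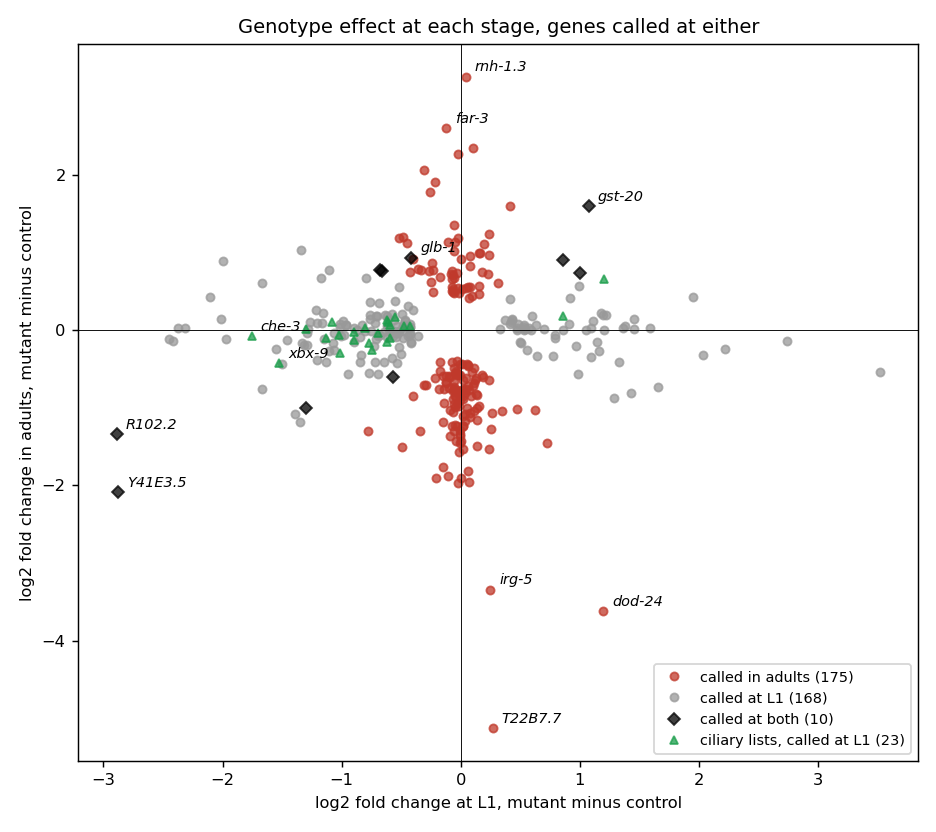
Log2 fold change, mutant minus control, at L1 (across) and in adults (upwards) for every gene called at either stage, with genes called in adults in red, at L1 in grey, at both stages as black diamonds, and ciliary genes called at L1 in green. T22B7.7, irg-5, rnh-1.3 and far-3 lie close to the vertical line of no L1 change, whereas dod-24 lies to its right, at 1.2 at L1, where it was not called. The ciliary genes lie between -0.43 (xbx-9) and 0.65 (dyf-11) in adults. The stages were deposited at different array medians, so the axes compare differences within a stage.

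A small part of the called genes was called at both stages, though a larger share than over all genes. Of the 185 genes called in adults and the 201 called at L1, 10 were shared, 5.41% of the adult genes and 4.98% of the L1 genes. Over all genes 1.17% were called at L1, and 0.374% were called higher and 0.707% lower in adults. A gene called at 1 stage only may still have changed at the other. The brighter daf-19 probe set was called lower at L1 (-0.70) and had -0.56 without a call in adults. In 7 the direction was shared: Y41E3.5, R102.2, clip-1 and gakh-1 fell, and gst-20, F44G4.7 and tag-123 rose. The adult calls of gst-20 and F44G4.7 held under every alternative in which they were tested. Those of clip-1 and tag-123 ended without mutant array 1 or 2 or control array 2 or 3 (0.0602 to 0.122), and that of tag-123 without mutant array 3 (0.0578). In the fit of the adult arrays alone the calls of R102.2 (0.118), clip-1 (0.167), tag-123 (0.0534) and gakh-1 (0.0507) ended.

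The largest shared fall was in Y41E3.5, with 4.27, 4.5 and 4.73 in adult mutants and 5.62, 6.97 and 7.17 in adult controls (-2.09, SE 0.33, adjusted p = 0.0052) and -2.88 at L1. Its probe set can match more than 1 transcript, and its adult call ended in the fit of the adult arrays alone (0.0643) and with the Gapdh covariate (0.056). R102.2 had 6.50, 6.28 and 6.38 in adult mutants and 6.98, 7.97 and 8.24 in adult controls (-1.34, SE 0.24, adjusted p = 0.0139) and -2.89 at L1, a smaller fall in adults by the test of the difference (1.55, adjusted p = 0.0364). The R102.2 call ended without mutant array 2 or 3 or control array 2 or 3 (0.063 to 0.0914). F44G4.7 had 6.23, 6.01 and 6.07 in adult mutants and 5.19, 5.30 and 5.11 in adult controls (0.90, SE 0.13, adjusted p = 0.00209), next to 0.86 at L1. For gst-20 the fold change was 1.59 in adults and 1.07 at L1, a difference that did not pass the test (0.52, adjusted p = 0.527).

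The other 3 shared genes rose in adults and fell at L1. glb-1 rose by 0.93 in adults and had -0.41 at L1 (difference 1.34, adjusted p = 0.00021). srp-3, a serpin gene, had 5.25, 4.81 and 5.15 in adult mutants and 4.46, 4.21 and 4.26 in adult controls (0.76, adjusted p = 0.012) and -0.67 at L1 (difference 1.43, adjusted p = 0.00098). F44A2.3 had 7.42, 7.35 and 7.60 in adult mutants and 6.71, 6.84 and 6.49 in adult controls (0.78, adjusted p = 0.029) and -0.68 at L1 (difference 1.46, adjusted p = 0.0029). The adult calls of srp-3 and F44A2.3 ended without mutant array 1 or 3 or control array 2 or 3 (0.0623 to 0.159), and that of F44A2.3 without mutant array 2 (0.0709). With the Gapdh covariate both ended (0.115 for F44A2.3 and 0.126 for srp-3). Of the 185 adult genes, the test of the stage difference called 86, 33 that rose and 53 that fell, and did not call the other 99.

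By position, some genes that fell lay close to one another. Of the 121, 35 had another gene that fell within 10 measured genes. The number expected for genes taken at random was not computed, so this count does not show an excess. Besides the immune run on chromosome IV, T22B7.7 lay with C41G11.1 and gakh-1 within 16 measured genes on the X chromosome, and ZK1053.4, vet-6, sepa-1 and sdz-30 lay within 16 on chromosome I. C41G11.1 had 7.78, 8.44 and 8.07 in mutants and 9.12, 9.44 and 9.63 in controls (-1.3, SE 0.16, adjusted p = 0.000612). On chromosome II, btb-11, fbxb-40 and btb-10 lay within 8 measured genes, Y51H7C.1, fbxb-42 and fbxb-54 within 14, and fbxb-35, fbxb-37 and sdz-28 within 21. Chromosome I held 17 genes that fell and 7 that rose of 2469 measured, chromosome II 29 and 12 of 3015, and chromosome III 15 and 6 of 2251. Chromosome IV held 29 and 14 of 2666, chromosome V 17 and 19 of 4317, and the X chromosome 14 and 6 of 2352. Among all genes 0.707% fell and 0.374% rose, and differences between chromosomes were not tested. Families of similar genes lie next to each other in this genome and their probe sets can share sequence, and what part either had in the runs was not tested.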

How the data were processed

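Total RNA of whole worms was labelled from 6 ug and hybridised to an Affymetrix array, per the labels' protocols. The authors deposited log2 signals with 2 decimals. How they corrected background and normalized is not given in the sources used here, and the unit was read from the deposited values. The 77 array control probe sets were left out. Of the 22548 others, 20766 had 1 gene in the platform annotation, 887 had several and 895 were unlisted and stay unnamed. A table of RefSeq genes on assembly WBcel235 held the identifiers of 20701 of the single-gene probe sets and changed 0 symbols. Each gene stands for its brightest probe set, by the mean of the 6 adult arrays.

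limma 3.58.1 (R 4.3.3) fitted group means to all 14 arrays (10 residual and 4.18 prior degrees of freedom), and the contrasts were mutant minus control in adults and the same minus that at L1. P-values were two-sided, with Benjamini-Hochberg adjustment over 22548 probe sets, and the fit was checked on simulated data. The number of arrays limits the precision (median SE 0.12). The p-values measure the spread between the labelled replicates.

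The members, the 33 gene lists, the 16 alternatives and the rule for naming genes were chosen with earlier results of these data known. The rule takes daf-19 and daf-12, the 15 largest rises and falls, up to 4 called genes of each list (the smallest p where none was called), and the 3 largest changes of each family of at least 10 genes with at least 3 called one way. A replicate block was tried: the deviations of same-numbered mutant and control arrays correlated at 0.44, 0.11 and 0.04, so the numbers were not taken as pairs. The 0.44 was that of the number 1 arrays, and mutant array 1 correlated with control arrays 2 and 3 at -0.34 and -0.33. Whether the number 1 arrays shared a source of spread was not tested. Fits without control array 1 kept mutant array 1.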

Additional observations from a re-analysis of the deposited data

Results flagged for a closer look

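The genotype effect in adults differed from that at L1, by the test of the difference, in 28 of the 78 named genes. For genes that fell in adults the adult effect minus the L1 effect was -5.39 for T22B7.7, -4.82 for dod-24, -3.59 for irg-5 and -1.77 for dod-22. It was -1.95 for K07C11.7, -1.88 for Y38E10A.14, -1.77 for Y51H7C.1 and -1.13 for tni-3. In early zygotic genes it was -1.34 for vet-6, -1.28 for sdz-25, -1.25 for sdz-30 and -1.15 for pes-10, and in Skp1-related genes -1.11 for skr-9 and -0.97 for skr-7.

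For genes that rose in adults the difference was 3.22 for rnh-1.3, 2.72 for far-3, 2.37 for clec-61, 2.23 for F49E11.2 and 2.12 for F59A7.2. It was 2.03 for sdz-24, 1.70 for ugt-64, 1.68 for ttr-5, 1.57 for cnc-4, 1.24 for fipr-16, 1.21 for msa-1, 1.18 for F47B8.2 and 1.1 for nlp-80. In xbx-9, called lower at L1 and not called in adults, it was 1.1. The adjusted p of the difference was smallest for T22B7.7, irg-5 and rnh-1.3 (2.77e-07) and largest for Y38E10A.14 (0.0435).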

How the results depend on the processing

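None of the 185 called genes changed direction under any of the 16 alternatives. The counts of 64 higher and 121 lower genes became 624 and 903 with array weights, which gave control array 1 a weight of 0.52 and control array 2 one of 5.03. With the Gapdh 3′ minus 5′ difference as a covariate they were 24 and 31. The fit of the adult arrays alone called 63 lower, and plain probe sets alone 65. Leaving out 1 array at a time gave 29 to 116 higher and 53 to 455 lower. Control array 1 gave the highest counts: without it 116 genes were higher and 455 lower. Without mutant arrays 1, 2 and 3 the counts were 36 and 60, 37 and 79, and 31 and 63, and without control arrays 2 and 3 they were 29 and 53, and 31 and 57. In the 2 quantile normalizations, the trended fit, the filter on dim probe sets and the means over a gene's probe sets the counts stayed within 1.5 times. With the replicate number as a block the adult arrays gave 88 higher and 146 lower, and 131 of the 185 genes were among them. Of the 3 mutant arrays only mutant array 1 correlated best with the control array of its own number (0.44). Of the 185 genes, 44 (19 higher and 25 lower) were called under every alternative in which they were tested, and so were 18 of the 50 named genes that were called. Of the 28 named genes not called, 16 passed under some alternative. Of the differences between stages, those of F47B8.2 (adjusted p = 0.0565), fipr-16 (0.0552) and Y38E10A.14 (0.124) missed the threshold under a joint quantile normalization.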
